A study of Arabidopsis thaliana with 48 samples.

Results

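The core genes of the Arabidopsis circadian clock were followed across all conditions of this RNA sequencing experiment: LHY (AT1G01060), CCA1 (AT2G46830), PRR9 (AT2G46790), PRR7 (AT5G02810), PRR5 (AT5G24470), TOC1 (AT5G61380), GI (AT1G22770), LUX (AT3G46640), ELF4 (AT2G40080) and ELF3 (AT2G25930). These 10 genes were picked by locus identifier from the 32678 identifiers in the deposited count tables, and all 10 passed the filter that left 21098 genes, a total above 100 counts. The set was selected on a large difference in LHY between the genotypes, so every difference between the genotypes below is a description without a test. Shoots and roots came from 5-week-old plants grown under short days in the gnotobiotic FlowPot system and harvested at 10 a.m.; the time of lights-on is not given in the sources used here. Plants were either *myc2-3*, a jasmonate-signalling mutant lacking functional MYC2, or MYC2–FLAG, a *jin1-8* mutant complemented with the pMYC2::MYC2–FLAG transgene, so that a FLAG-tagged MYC2 is made under its own promoter. Pots were sterile (−BFO) or inoculated with a synthetic community of bacteria, fungi and oomycetes (+BFO). Light was normal (NC) or of reduced photosynthetically active radiation (LP, labelled shade). Each of the 16 combinations of tissue, genotype, light and BFO had 3 replicate libraries, 48 in all. No library of untransformed wild type entered these comparisons, and MYC2–FLAG stood as the control for *myc2-3*.

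Several facts about the libraries bear on every value below. The libraries of the genotypes carry different number prefixes in their titles, whose meaning the labels do not state. Effects of genotype and of any batch that goes with the prefix cannot be told apart. Between 5162823 and 11045467 reads per library fell on genes. MYC2 mRNA was lower in the mutant throughout, at 5.48 to 17.8 CPM (a gene's count relative to the TMM-scaled total of its library) in *myc2-3* shoots against 54.3 to 410 CPM in MYC2–FLAG shoots, and at 23.5 to 41.0 CPM against 110 to 211 CPM in roots. The methods of the study state that in many of the *myc2-3* samples most reads came from a latent virus, and mention none for MYC2–FLAG. From how the *myc2-3* samples clustered, the authors state that the virus had no significant effect on plant transcripts. Viral reads were not analysed here, and their part in the results was not tested. Markers matched the labelled tissues. The green-tissue markers that passed the filter summed to between 18742 and 43148 CPM in shoots and 20.6 to 160 CPM in roots. The 6 root markers summed to between 0.312 and 8.49 CPM in shoots and 278 to 852 CPM in roots. EXPA7 was at 0 in all 24 shoot libraries. GL1, a green-tissue marker that failed the filter, was at 0 in all 24 root libraries. It was also at 0 in 3 shoot libraries and reached at most 1.95 CPM in shoots. The mean profiles of the 2 genotypes went against their shared labels in several conditions. Over 18776 genes, centred within each genotype, the 4 *myc2-3* root conditions correlated with the MYC2–FLAG condition of the same label at r = -0.798 to -0.529, and each correlated best with the MYC2–FLAG condition of the same light and the other BFO label (r = 0.599 to 0.805). Over 17943 genes in shoots, the correlation with the same label was -0.353 for NC −BFO, 0.62 for NC +BFO, 0.739 for LP −BFO and -0.708 for LP +BFO, and *myc2-3* NC −BFO was nearest to MYC2–FLAG LP +BFO (r = 0.846). These correlations are across genes, which are not independent replicates. Conditions were kept as labelled. An exchange of labels and a true difference in response cannot be told apart here, and if labels were exchanged within a genotype, the direction of that genotype's light or BFO comparisons would turn.

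As background, the plant clock is a network of transcription factors that mostly repress one another in a daily sequence. LHY and CCA1 are MYB-related factors that peak around dawn and repress evening genes. The pseudo-response regulators PRR9, PRR7 and PRR5 follow one another from morning to dusk and repress LHY and CCA1, and TOC1, a member of the same family, does so in the evening. GI stabilizes the photoreceptor-type F-box protein ZTL and acts in flowering. ELF3, ELF4 and LUX form the evening complex, which represses PRR9 and other targets at night. Because each RNA was sampled at a single time of day, a shift in phase, a change in amplitude and a change in mean level of a rhythm cannot be told apart. In bulk tissue, fewer cells of a type and less RNA per cell cannot be told apart either.

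In shoots, the morning gene LHY was lowest in MYC2–FLAG under NC and highest in *myc2-3* without microorganisms. Its levels in MYC2–FLAG NC −BFO were 1.01, 1.73 and 0.463 CPM, and in MYC2–FLAG NC +BFO 0.952, 0.717 and 0.626 CPM, from 3 to 10 counts per library. In MYC2–FLAG LP −BFO they were 4.87, 6.23 and 2.78 CPM, and in MYC2–FLAG LP +BFO 5.84, 4.83 and 3.99 CPM. Both LP groups of MYC2–FLAG lay above both NC groups without overlap. In *myc2-3* LHY reached 21.2, 16.5 and 16.9 CPM under NC −BFO, 10.2, 11.4 and 9.46 CPM under NC +BFO, 15, 17.0 and 16.4 CPM under LP −BFO and 6.35, 2.53 and 5.29 CPM under LP +BFO. Ordered by mean, the first neighbours, *myc2-3* NC −BFO and *myc2-3* LP −BFO, overlapped, *myc2-3* NC +BFO stood alone, the 3 groups MYC2–FLAG LP +BFO, *myc2-3* LP +BFO and MYC2–FLAG LP −BFO overlapped, and the MYC2–FLAG NC groups came last and overlapped. The log2 difference between *myc2-3* and MYC2–FLAG was 4.11 (SE 0.39) under NC −BFO, 3.71 (SE 0.45) under NC +BFO, 1.80 (SE 0.29) under LP −BFO and 0.022 (SE 0.36) under LP +BFO. The large excess of LHY in the mutant was therefore present in 3 of the 4 shoot conditions, and under LP +BFO the libraries overlapped.

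CCA1, the close relative of LHY, moved over a wider range of levels. In MYC2–FLAG shoots it stood at 15.9, 15.6 and 16.7 CPM under NC −BFO, 11.2, 8.32 and 8.29 CPM under NC +BFO, 50.1, 42.6 and 45.3 CPM under LP −BFO and 100, 93.4 and 100.4 CPM under LP +BFO. In *myc2-3* shoots it stood at 186, 173 and 181 CPM under NC −BFO, 59.1, 63.5 and 60.0 CPM under NC +BFO, 66.4, 78.0 and 68.6 CPM under LP −BFO and 26.0, 16.1 and 24.4 CPM under LP +BFO. LP +BFO was thus the condition with the highest CCA1 in MYC2–FLAG and the lowest in *myc2-3*. The log2 difference between *myc2-3* and MYC2–FLAG went from 3.48 under NC −BFO through 2.71 and 0.63 to -2.12 under LP +BFO. PRR9, the earliest of the pseudo-response regulators, followed CCA1. Its means in MYC2–FLAG shoots were 3.12 ± 0.297 CPM (SD, n = 3, as for all such values), 3.92 ± 0.816 CPM, 19.5 ± 2.67 CPM and 54.9 ± 12.1 CPM, in the order of conditions used for CCA1. In *myc2-3* shoots, in the same order, they were 64.7 ± 10.4 CPM, 14.5 ± 2.67 CPM, 16.4 ± 0.298 CPM and 8.86 ± 0.806 CPM. The *myc2-3* excess of PRR9 was 4.37 on the log2 scale under NC −BFO and turned to -2.64 under LP +BFO.

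PRR5, TOC1 and GI were lower in *myc2-3* shoots in all 4 conditions, also under LP +BFO, where CCA1 and PRR9 were lower too. PRR5, which represses CCA1 and LHY in the afternoon, was at 185, 183 and 206 CPM in MYC2–FLAG NC −BFO, 169, 156 and 155 CPM in NC +BFO, 79.3, 70.0 and 91.9 CPM in LP −BFO and 176, 152 and 208 CPM in LP +BFO. In *myc2-3* it was at 16.9, 15.3 and 24.7 CPM, 55.9, 69.4 and 57.1 CPM, 9.93, 15.7 and 9.49 CPM and 49.5, 53.4 and 48.3 CPM in the same order. All 12 *myc2-3* libraries lay below all 12 MYC2–FLAG libraries. TOC1 was at 110.2, 130.2 and 106 CPM in MYC2–FLAG NC −BFO and 14.7, 15.5 and 19.8 CPM in *myc2-3* NC −BFO, a log2 difference of -2.79 (SE 0.13). The difference was -1.42 in NC +BFO plants and, under LP, -0.82 without and -0.53 with BFO, and the libraries of the 2 genotypes did not overlap in any of the 4 conditions. GI was lower in *myc2-3* in each condition without overlap, at log2 differences from -1.97 to -0.83.

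Within the evening complex, LUX and ELF3 were lower in *myc2-3* except under LP +BFO, and ELF4 was lower in *myc2-3* in every shoot condition. LUX, its DNA-binding subunit, was at 88.2, 100.4 and 104 CPM in MYC2–FLAG NC −BFO and at 2.67, 5.70 and 4.53 CPM in *myc2-3* NC −BFO, a log2 difference of -4.53 (SE 0.18). Under LP +BFO the libraries of the genotypes overlapped for LUX, with 22.0, 24.9 and 23.1 CPM in MYC2–FLAG and 25.7, 34.0 and 23.5 CPM in *myc2-3*. ELF3, the scaffold of the complex, was lower in *myc2-3* by a log2 difference of -1.82 under NC −BFO, -1.14 under NC +BFO and -1.04 under LP −BFO, and stood at 57.4 ± 1.76 CPM in MYC2–FLAG and 59.6 ± 0.460 CPM in *myc2-3* under LP +BFO. The LP −BFO difference in ELF3 fell just below a log2 of 1 in size when MYC2–FLAG replicate 3 (-1.0) or *myc2-3* replicate 1 (-0.94) was left out. ELF4, a small protein of the complex, was nearly undetected in *myc2-3* shoots, with 0 to 4 counts in each of the 12 libraries against 7 to 46 counts in each MYC2–FLAG library. Summed over 3 libraries there were 122 counts in MYC2–FLAG and 2 in *myc2-3* under NC −BFO, a ratio of 55.2 with an exact Poisson 95% interval of 15 to 461. The sums were 107 and 3 under NC +BFO (ratio 27.1, interval 9.02 to 133), 73 and 3 under LP −BFO (ratio 21.3, interval 7.0 to 106) and 49 and 6 under LP +BFO (ratio 8.70, interval 3.72 to 24.8). These intervals cover counting error only. The lower ratio under LP +BFO came with a wide spread in MYC2–FLAG, where ELF4 stood at 1.36, 1.61 and 5.49 CPM. PRR7, of the morning to midday, differed least: its level lay between 349.9 and 647 CPM in all 24 shoot libraries, and its log2 difference between the genotypes between -0.51 and 0.20.

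Counted over the members, a log2 difference of at least 1 in either direction without overlap of the libraries was seen under NC for 9 of 10 genes in −BFO and 8 in +BFO shoots, where 17.0% and 5.26% of all genes tested were past the same rule. Under LP it was seen for 6 genes in −BFO and 5 in +BFO shoots, where 5.41% and 19.3% of all genes were. Since LHY was chosen from this contrast, nothing is read from these counts.

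**Figure D1:**
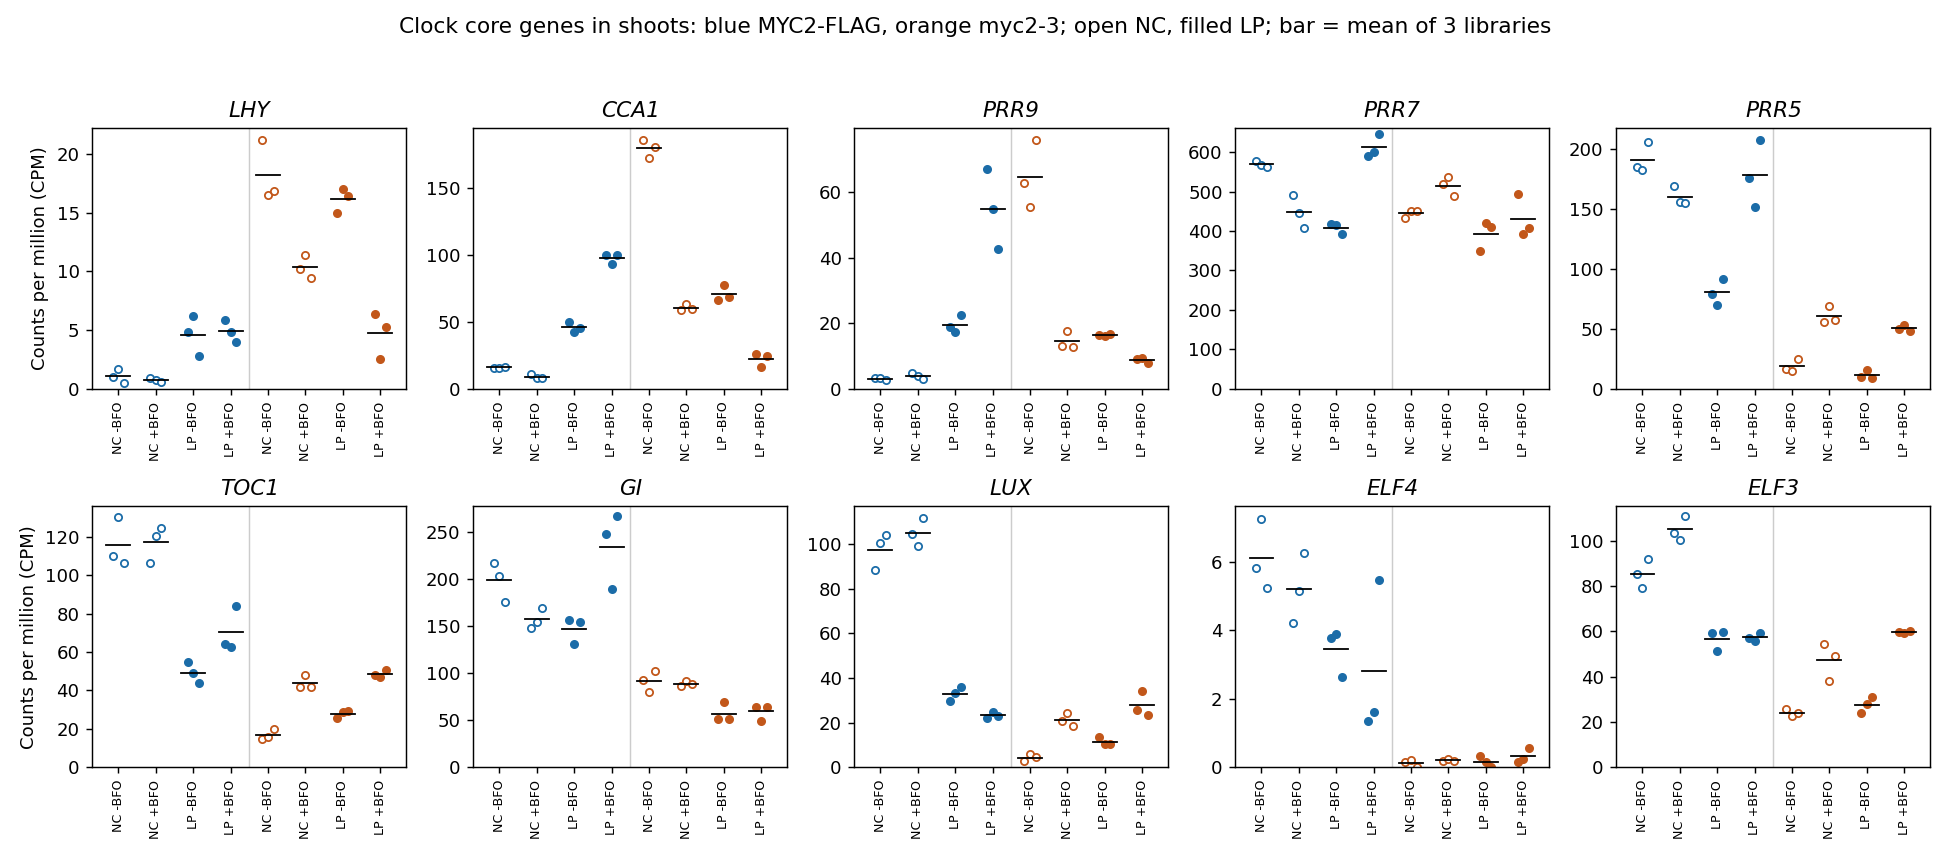
Levels of the 10 clock genes in shoots, in CPM on linear axes from 0, by light and BFO on the horizontal axis; blue points are MYC2–FLAG and orange points *myc2-3* libraries, open for NC and filled for LP, and bars are means of 3 libraries. CCA1 was at 15.6 to 16.7 CPM in MYC2–FLAG and 173 to 186 CPM in *myc2-3* under NC −BFO, while LUX and PRR5 were at their lowest in *myc2-3* without microorganisms.

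In roots, LHY was higher in *myc2-3* than in MYC2–FLAG in all 4 conditions. In MYC2–FLAG it stood at 6.09, 5.03 and 8.75 CPM under NC −BFO, 1.03, 1.68 and 2.54 CPM under NC +BFO, 14.9, 17.9 and 15.4 CPM under LP −BFO and 0.666, 1.64 and 1.92 CPM under LP +BFO. In *myc2-3* it stood at 13.1, 10.3 and 21.8 CPM, 17.8, 26.7 and 24.1 CPM, 51.5, 40.3 and 56.3 CPM and 31.3, 48.4 and 44.4 CPM in the same order. Ordered by mean, the 2 *myc2-3* LP groups came first and overlapped, *myc2-3* NC +BFO, MYC2–FLAG LP −BFO and *myc2-3* NC −BFO followed with overlap between neighbours, MYC2–FLAG NC −BFO stood alone, and the 2 MYC2–FLAG +BFO groups came last and overlapped. The log2 difference between *myc2-3* and MYC2–FLAG was 1.19 (SE 0.25) under NC −BFO, 3.67 (SE 0.30) under NC +BFO, 1.62 (SE 0.22) under LP −BFO and 4.84 (SE 0.31) under LP +BFO. Without *myc2-3* replicate 3, the difference under NC −BFO was 0.83 for LHY and 0.72 for CCA1. The wide gap in +BFO roots therefore came with very low LHY in MYC2–FLAG, at 6 to 29 counts per library. CCA1 went with LHY, from 1.78, 4.10 and 6.76 CPM in MYC2–FLAG LP +BFO to 66.3, 56.8 and 68.0 CPM in *myc2-3* LP −BFO.

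The evening genes in roots differed between the genotypes mainly in +BFO plants. TOC1 stood at 158, 158 and 143 CPM in MYC2–FLAG and 51.0, 51.9 and 48 CPM in *myc2-3* under NC +BFO, and at 94.0, 79.8 and 73.5 CPM and 79.9, 84.3 and 91.9 CPM under NC −BFO. The groups did not overlap in +BFO and overlapped in −BFO roots. The log2 difference in +BFO roots under NC and LP was -1.92 and -2.35 for PRR5, -2.16 and -1.51 for LUX, -1.23 and -1.21 for ELF3 and -2.88 and -2.85 for ELF4. In −BFO roots it was 0.41 and 0.13 for PRR5, -0.40 and -1.08 for LUX, 0.39 and 0.21 for ELF3 and -0.32 and -1.41 for ELF4. PRR9, PRR7 and GI stayed within a log2 difference of 1 in size in all root conditions except PRR9 under LP −BFO (1.29) and PRR7 under LP +BFO (-1.08, or -0.95 without MYC2–FLAG replicate 3); GI under LP +BFO was at -0.97 and passed 1 in size without *myc2-3* replicate 1 (-1.04). The log2 difference of LUX under LP −BFO was -0.99 without MYC2–FLAG replicate 1. By the same rule as in shoots, 2 genes in −BFO and 7 in +BFO roots were past it under NC, where 11.7% and 12.7% of all genes were, and 5 and 8 under LP, where 17.2% and 15.2% of all genes were. Nothing is read from these counts either.

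**Figure D2:**
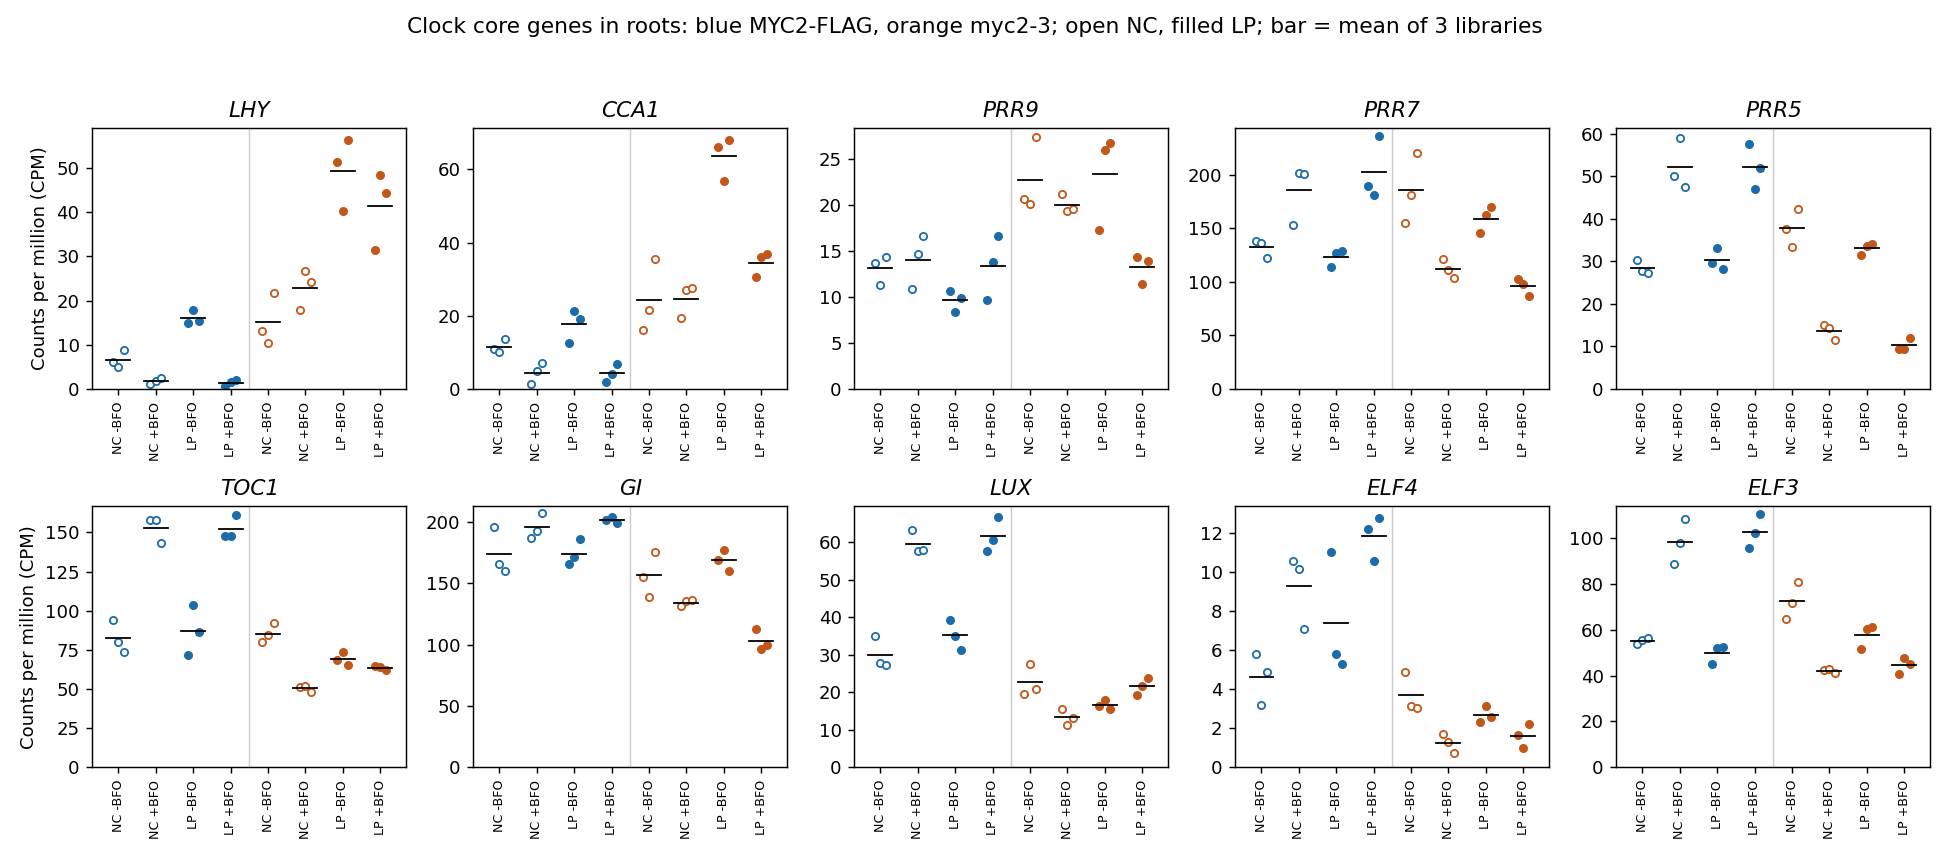
Levels of the 10 clock genes in roots, in CPM on linear axes from 0, by light and BFO on the horizontal axis, with colours, symbols and bars as for shoots. LHY was at 0.666 to 2.54 CPM in the 6 MYC2–FLAG +BFO libraries and at 17.8 to 48.4 CPM in the 6 *myc2-3* +BFO libraries.

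**Figure D3:**
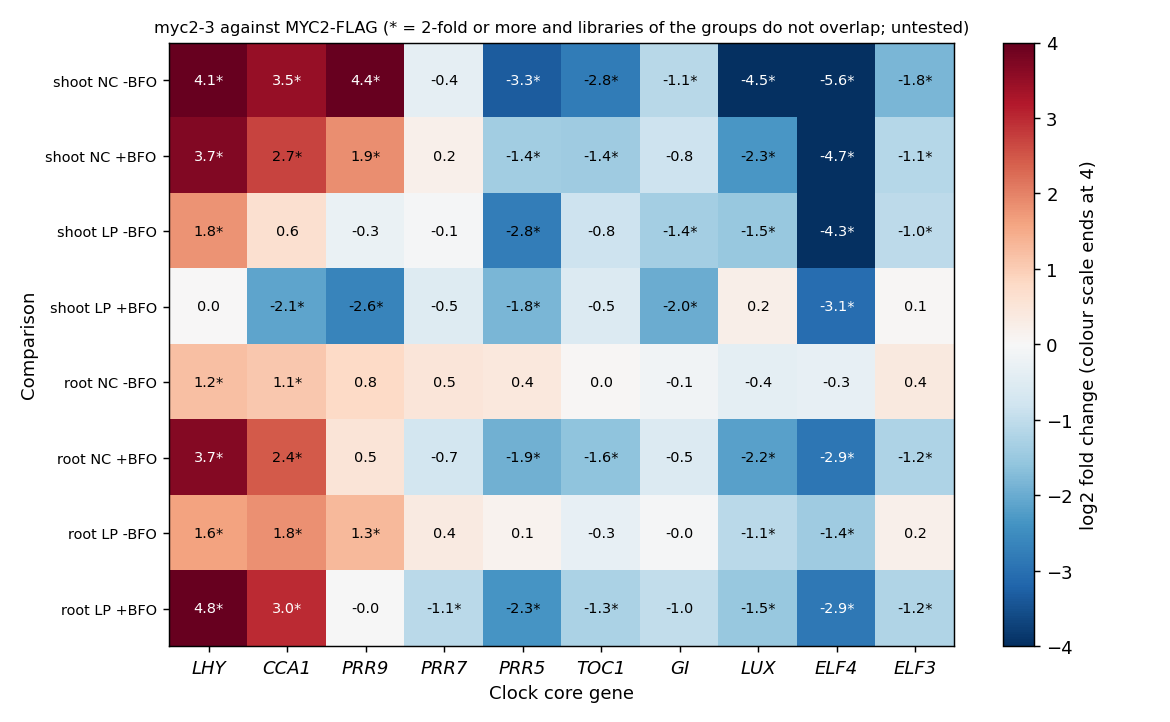
Log2 difference of *myc2-3* from MYC2–FLAG for each gene (columns) in each condition (rows), red for higher and blue for lower in *myc2-3*; the colour scale ends at a log2 of 4 and an asterisk marks a log2 difference of at least 1 in size without overlap of the libraries. LHY ran from 0.022 in LP +BFO shoots to 4.84 in LP +BFO roots. ELF4 in shoots rests on few counts, so its fitted values there are no bounds.

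The response to low light was tested within each genotype. LP +BFO and the other groups each enter a light and a BFO comparison, so the comparisons share libraries and their values are given side by side only. A call required a log2 fold change of 1 or more in size together with a p under 0.05 in edgeR's quasi-likelihood test, after Benjamini-Hochberg adjustment. In MYC2–FLAG shoots, the morning genes and PRR9 rose under LP while LUX fell. In −BFO plants 18.9% of all genes tested were called, and 6 of the 10 clock genes: LHY (log2 fold change 2.14, SE 0.47, edgeR adjusted p = 2.51e-04), CCA1 (log2 fold change 1.51, SE 0.26, edgeR adjusted p = 9.79e-06) and PRR9 (log2 fold change 2.64, SE 0.24, edgeR adjusted p = 1.28e-11) rose, and PRR5 (log2 fold change -1.25, SE 0.14, edgeR adjusted p = 1.16e-09), TOC1 (log2 fold change -1.23, SE 0.12, edgeR adjusted p = 5.09e-11) and LUX (log2 fold change -1.56, SE 0.14, edgeR adjusted p = 9.22e-12) fell. In +BFO plants 18.8% of all genes were called, and 4 of the 10: LHY (log2 fold change 2.63, SE 0.51, edgeR adjusted p = 4.00e-05), CCA1 (log2 fold change 3.40, SE 0.28, edgeR adjusted p = 3.90e-13) and PRR9 (log2 fold change 3.79, SE 0.22, edgeR adjusted p = 1.49e-17) rose and LUX (log2 fold change -2.17, SE 0.15, edgeR adjusted p = 1.81e-15) fell. TOC1 and ELF3 passed the p threshold there but not the fold, at log2 -0.73 and -0.87, and PRR5 was at 0.16. GI and PRR7 were higher under LP without overlap, at log2 0.58 and 0.45, also short of the fold. ELF4 was at -0.83 and called at -1.79 (adjusted p = 0.000505) when LP +BFO replicate 3 was left out.

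In *myc2-3* shoots CCA1 fell under LP in −BFO and +BFO plants, PRR9 in −BFO plants and LHY in +BFO plants. In −BFO plants 7.19% of all genes were called, and 3 of the 10 clock genes. CCA1 (log2 fold change -1.34, SE 0.23, edgeR adjusted p = 2.74e-05) and PRR9 (log2 fold change -1.99, SE 0.18, edgeR adjusted p = 5.46e-11) fell, LUX (log2 fold change 1.44, SE 0.21, edgeR adjusted p = 1.48e-06) rose, and LHY was at -0.18 (SE 0.25, edgeR adjusted p = 0.673) with overlapping libraries. In +BFO plants 7.60% of all genes were called and 2 of the 10, LHY (log2 fold change -1.06, SE 0.33, edgeR adjusted p = 0.0118) and CCA1 (log2 fold change -1.43, SE 0.26, edgeR adjusted p = 5.08e-05), which both fell. The LHY call was lost without LP +BFO replicate 2 (log2 fold change -0.82, adjusted p = 0.0773), without NC +BFO replicate 2 (-0.99, adjusted p = 0.0375) and with all libraries thinned to the smallest total (-0.96, adjusted p = 0.0278). PRR9 was at -0.70 (SE 0.22, edgeR adjusted p = 0.0141) in the same comparison, short of the fold. The fold changes of CCA1 and PRR9 under LP thus had opposite signs in the 2 genotypes, and the difference between the responses was not tested, because it uses the contrast that chose the genes. Each *myc2-3* shoot comparison holds NC −BFO or LP +BFO, whose mean profiles went against the same label in MYC2–FLAG, so these signs too cannot be told apart from exchanged labels.

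The response of shoots to the microbial community was also tested within each genotype. In MYC2–FLAG shoots under NC none of the 10 was called (edgeR's quasi-likelihood test), where 6.18% of all genes were. CCA1 came nearest at -0.79 (SE 0.30, edgeR adjusted p = 0.0492). Unadjusted, 4 of the 10 had a p under 0.05, and limma-voom and DESeq2 called none either. Under LP 9.68% of all genes were called and 3 of the 10, all higher with BFO: CCA1 (log2 fold change 1.09, SE 0.24, edgeR adjusted p = 4.55e-04), PRR9 (log2 fold change 1.49, SE 0.18, edgeR adjusted p = 1.96e-08) and PRR5 (log2 fold change 1.15, SE 0.14, edgeR adjusted p = 2.07e-08). Short of the fold, GI, PRR7 and TOC1 were higher with BFO without overlap. Their means with and without BFO were 235 and 148 CPM for GI, 612 and 408 CPM for PRR7, and 70.3 and 49.3 CPM for TOC1. LUX was lower with BFO without overlap but short of the fold (-0.50). ELF4, at -0.24, was called lower at -1.19 (edgeR adjusted p = 0.0479) without LP +BFO replicate 3. LHY was at 0.064 (SE 0.36, edgeR adjusted p = 0.947) with overlapping libraries.

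In *myc2-3* shoots CCA1 fell and PRR5 and LUX rose with BFO at both light levels. Under NC 14.3% of all genes were called and 5 of the 10: CCA1 (log2 fold change -1.57, SE 0.24, edgeR adjusted p = 1.21e-06) and PRR9 (log2 fold change -2.18, SE 0.19, edgeR adjusted p = 3.61e-12) fell, and PRR5 (log2 fold change 1.67, SE 0.16, edgeR adjusted p = 2.68e-11), TOC1 (log2 fold change 1.39, SE 0.14, edgeR adjusted p = 7.19e-11) and LUX (log2 fold change 2.32, SE 0.20, edgeR adjusted p = 3.82e-12) rose. LHY was at -0.83 (SE 0.27, edgeR adjusted p = 0.0145) and ELF3 at 0.98 (SE 0.11, edgeR adjusted p = 5.25e-09), both short of the fold. ELF3 was called at 1.03 without NC −BFO replicate 1 and at 1.1 without NC +BFO replicate 2. Under LP 7.39% of all genes were called and 5 of the 10: LHY (log2 fold change -1.71, SE 0.30, edgeR adjusted p = 3.60e-05) and CCA1 (log2 fold change -1.66, SE 0.26, edgeR adjusted p = 4.44e-06) fell, and PRR5 (log2 fold change 2.08, SE 0.16, edgeR adjusted p = 1.94e-12), LUX (log2 fold change 1.27, SE 0.17, edgeR adjusted p = 2.25e-07) and ELF3 (log2 fold change 1.11, SE 0.11, edgeR adjusted p = 7.54e-10) rose. PRR9 was at -0.89 and TOC1 at 0.81. None of these calls was lost in any alternative analysis.

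Low light gave few calls of clock genes in roots, all of them for LHY or CCA1. In MYC2–FLAG −BFO roots 4.49% of all genes were called and 1 of the 10, LHY, which rose (log2 fold change 1.30, SE 0.25, edgeR adjusted p = 3.49e-04), while CCA1 was at 0.64 (SE 0.27, edgeR adjusted p = 0.102). In MYC2–FLAG +BFO roots 1.18% of all genes were called and none of the 10 (edgeR's quasi-likelihood test), with ELF4 farthest from 0 at 0.36 (SE 0.22, edgeR adjusted p = 0.416). Unadjusted, 0 of the 10 had a p under 0.05, and limma-voom and DESeq2 called none. In *myc2-3* −BFO roots 5.03% of all genes were called and 2 of the 10, LHY (log2 fold change 1.73, SE 0.22, edgeR adjusted p = 3.74e-07) and CCA1 (log2 fold change 1.39, SE 0.24, edgeR adjusted p = 5.90e-05), which both rose. In *myc2-3* +BFO roots 4.04% of all genes were called and none of the 10 (edgeR's quasi-likelihood test), although LHY reached 0.86 (SE 0.22, edgeR adjusted p = 0.00563) and was called at 1.02 without LP +BFO replicate 1. Unadjusted, 6 of the 10 had a p under 0.05, and limma-voom and DESeq2 called none. Short of the fold, LHY, CCA1, TOC1 and LUX were higher under LP in that comparison without overlap. PRR9, PRR7 and GI were lower there, also without overlap.

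The response of roots to the microbial community had opposite signs in the 2 genotypes for PRR7, PRR5, TOC1 and ELF3 at both light levels, each without overlap of the +BFO and −BFO libraries. The fold changes of PRR9, GI and ELF4 also had opposite signs at both light levels, with overlap in at least 1 of the comparisons. These differences were not tested, and 29.1% of all genes under NC and 29.8% under LP moved apart without overlap, against 6 and 5 of the 10. In MYC2–FLAG roots LHY and CCA1 fell with BFO at both light levels. Under NC 12.3% of all genes were called and 3 of the 10: LHY (log2 fold change -1.86, SE 0.34, edgeR adjusted p = 2.71e-05) and CCA1 (log2 fold change -1.35, SE 0.31, edgeR adjusted p = 6.06e-04) fell and ELF4 (log2 fold change 1.03, SE 0.25, edgeR adjusted p = 8.16e-04) rose. CCA1 was at -0.93 and ELF4 at 0.93 without NC +BFO replicate 1, and ELF4 was at 0.79 without NC −BFO replicate 2 and at 0.95 without NC +BFO replicate 2, none of them calls. PRR5, TOC1, LUX and ELF3 stood at log2 0.87, 0.89, 0.99 and 0.83, each past the p threshold and short of the fold; LUX was called at 1.11 without NC −BFO replicate 1 and at 1.01 without NC +BFO replicate 2 or replicate 3. Under LP 15.9% of all genes were called and 3 of the 10: LHY (log2 fold change -3.47, SE 0.33, edgeR adjusted p = 2.99e-11) and CCA1 (log2 fold change -2.04, SE 0.31, edgeR adjusted p = 8.40e-07) fell and ELF3 (log2 fold change 1.04, SE 0.10, edgeR adjusted p = 8.19e-11) rose. The ELF3 call was lost without LP −BFO replicate 1 (0.97) or LP +BFO replicate 3 (0.98), while ELF4 was called at 1.09 without LP −BFO replicate 1. The 6 MYC2–FLAG +BFO root libraries lay below the 6 −BFO libraries for LHY and for CCA1, and above them for PRR7, PRR5, TOC1, LUX and ELF3.

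In *myc2-3* roots PRR5 fell with BFO at both light levels and ELF4 under NC. Under NC 9.20% of all genes were called and 2 of the 10, PRR5 (log2 fold change -1.46, SE 0.15, edgeR adjusted p = 6.92e-10) and ELF4 (log2 fold change -1.53, SE 0.36, edgeR adjusted p = 8.13e-04), which both fell. PRR7, TOC1, LUX and ELF3 stood at log2 -0.73, -0.76, -0.77 and -0.78, each without overlap and short of the fold, and LHY at 0.62 (SE 0.23, edgeR adjusted p = 0.0384). Under LP 16.6% of all genes were called and 1 of the 10, PRR5, which fell (log2 fold change -1.69, SE 0.16, edgeR adjusted p = 3.33e-11). CCA1 was at -0.88, LHY at -0.25 and TOC1 at -0.12. PRR5 was at 37.7, 33.4 and 42.3 CPM in *myc2-3* NC −BFO roots and 15.1, 14.4 and 11.6 CPM with BFO, and at 30.4, 27.7 and 27.2 CPM and 49.9, 58.9 and 47.4 CPM in MYC2–FLAG. For these root libraries the mean profile of each *myc2-3* condition resembled the MYC2–FLAG condition with the other BFO label, as given above, so a sign that differs between the genotypes cannot be told apart from exchanged labels.

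Over the 16 light and BFO comparisons, CCA1 was called in 10, LHY in 8 and PRR5 in 6, and PRR9 and LUX in 5 each. TOC1, ELF3 and ELF4 were called in 2 each. PRR7 and GI, the afternoon gene that acts with ZTL, were called in none of them in the edgeR fit, and by neither DESeq2 nor limma-voom. Their log2 fold changes ran from -0.73 to 0.72 for PRR7 and from -0.71 to 0.67 for GI, and unadjusted p was under 0.05 in 9 and 8 of the 16. In all, 15 of 40 tests were called for light in shoots, 3 of 40 for light in roots, 13 of 40 for BFO in shoots and 9 of 40 for BFO in roots. Of all genes, 7.19% to 18.9% were called in the light comparisons of shoots and 1.18% to 5.03% in those of roots. In the BFO comparisons 6.18% to 14.3% were called in shoots and 9.20% to 16.6% in roots.

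**Figure D4:**
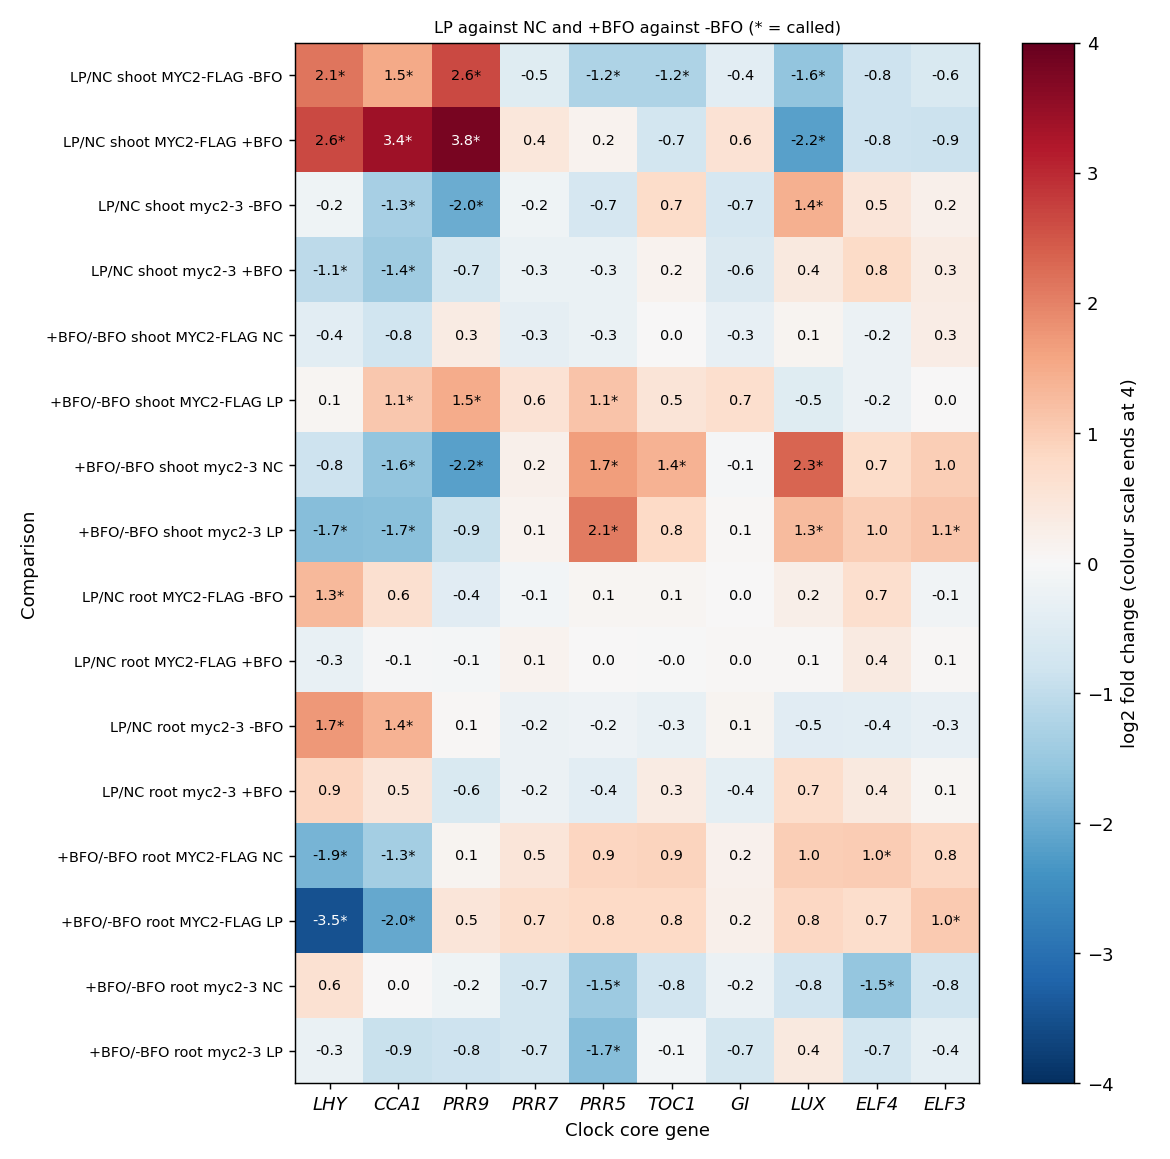
Log2 fold change of each clock gene (columns) in the 8 light comparisons (LP against NC) and the 8 BFO comparisons (+BFO against −BFO), as rows named by tissue, genotype and the condition held fixed; red is higher, blue is lower, the colour scale ends at a log2 of 4, and an asterisk marks a call. In the LP/NC shoot rows LHY and CCA1 were higher in MYC2–FLAG (1.51 to 3.40) and CCA1 lower in *myc2-3* (-1.43 to -1.34); PRR7 and GI carry no asterisk.

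Shoots and roots were compared within each genotype, over the means of the 4 conditions. PRR7 was higher in shoots in both genotypes, at a log2 fold change of 1.68 (SE 0.059, edgeR adjusted p = 4.79e-27) in MYC2–FLAG and 1.74 (SE 0.059, edgeR adjusted p = 1.68e-27) in *myc2-3*, with no overlap of the 12 and 12 libraries. In MYC2–FLAG, where 45.8% of all genes were called, 3 of the 10 were: PRR7, CCA1 (1.85, SE 0.15, edgeR adjusted p = 5.57e-15) and PRR5 (1.89, SE 0.071, edgeR adjusted p = 5.20e-26), each higher in shoots. In *myc2-3*, where 48% of all genes were called, 4 of the 10 were: PRR7 was higher in shoots, and LHY (-1.38, SE 0.13, edgeR adjusted p = 4.18e-13), TOC1 (-1.06, SE 0.062, edgeR adjusted p = 2.56e-19) and ELF4 (-3.42, SE 0.37, edgeR adjusted p = 3.43e-12) were lower. The ELF4 value rests on the few counts in *myc2-3* shoots. LHY in MYC2–FLAG was at -0.96 (SE 0.22, edgeR adjusted p = 1.56e-04), short of the fold, and passed it without any 1 of 6 libraries, at -1.01 to -1.07. The median of all genes in these contrasts was -0.14 in MYC2–FLAG and -0.13 in *myc2-3*, and changes are to be read against it. Without LP +BFO replicate 3 of the shoots ELF4 in MYC2–FLAG was called at -1.12, and without NC −BFO replicate 3 of the roots CCA1 in *myc2-3* was called at 1.02. The share of members called was below that of all genes in both genotypes.

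To set morning against evening genes at the harvest, the log2 CPM of each gene was centred on its mean over the 24 libraries of a tissue, and the mean over PRR5, TOC1, GI, LUX and ELF4 was subtracted from the mean over LHY and CCA1. This balance is a description, with no test. LHY enters the morning mean, and the set was selected on the difference in LHY between the genotypes. Gaps between the genotypes in the balance are therefore no separate support for that difference. In MYC2–FLAG shoots it was -3.21, -3.02 and -3.57 under NC −BFO, -3.31, -3.74 and -3.94 under NC +BFO, -0.41, -0.27 and -0.79 under LP −BFO and 0.16, 0.029 and -0.63 under LP +BFO. In *myc2-3* shoots it was 3.89, 3.47 and 3.48, 1.34, 1.25 and 1.31, 2.51, 2.64 and 2.89 and 0.44, -0.59 and 0.087 in the same order. The MYC2–FLAG NC libraries thus sat on the evening side of the shoot average and the *myc2-3* libraries, except under LP +BFO, on the morning side. The condition means spanned 7.27 log2 units. Under NC −BFO both groups of genes contributed: the morning mean was -1.73 ± 0.35 in MYC2–FLAG and 1.96 ± 0.12 in *myc2-3*, and the evening mean was 1.53 ± 0.080 and -1.65 ± 0.12. Under LP +BFO the means of the balance were -0.15 ± 0.42 in MYC2–FLAG and -0.022 ± 0.53 in *myc2-3* and the libraries overlapped, although both the morning mean (0.60 ± 0.13 against -0.54 ± 0.52) and the evening mean (0.74 ± 0.32 against -0.52 ± 0.091) were lower in *myc2-3*. There both groups of genes were lower on average in *myc2-3*, while the balance values of the genotypes overlapped.

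In roots the balance was -0.92, -0.74 and -0.23 in MYC2–FLAG NC −BFO and -0.26, 0.31 and 0.26 in LP −BFO, and with BFO it was -4.15, -2.99 and -2.27 under NC and -4.22, -3.06 and -2.75 under LP. In *myc2-3* roots it was 0.16, 0.27 and 1.09 in NC −BFO, 1.30, 1.98 and 2.1 in NC +BFO, 2.48, 2.03 and 2.55 in LP −BFO and 2.09, 2.65 and 2.31 in LP +BFO. All 12 *myc2-3* values were positive, and they overlapped with the MYC2–FLAG −BFO values and not with the MYC2–FLAG +BFO values. Because ELF4 was near 0 in *myc2-3* shoots, the balance was also computed without it, a choice made after seeing the data. The span of the shoot means was then 7.05, and the largest move of any condition was in *myc2-3* NC +BFO shoots, from 1.30 to 1.03.

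**Figure D5:**
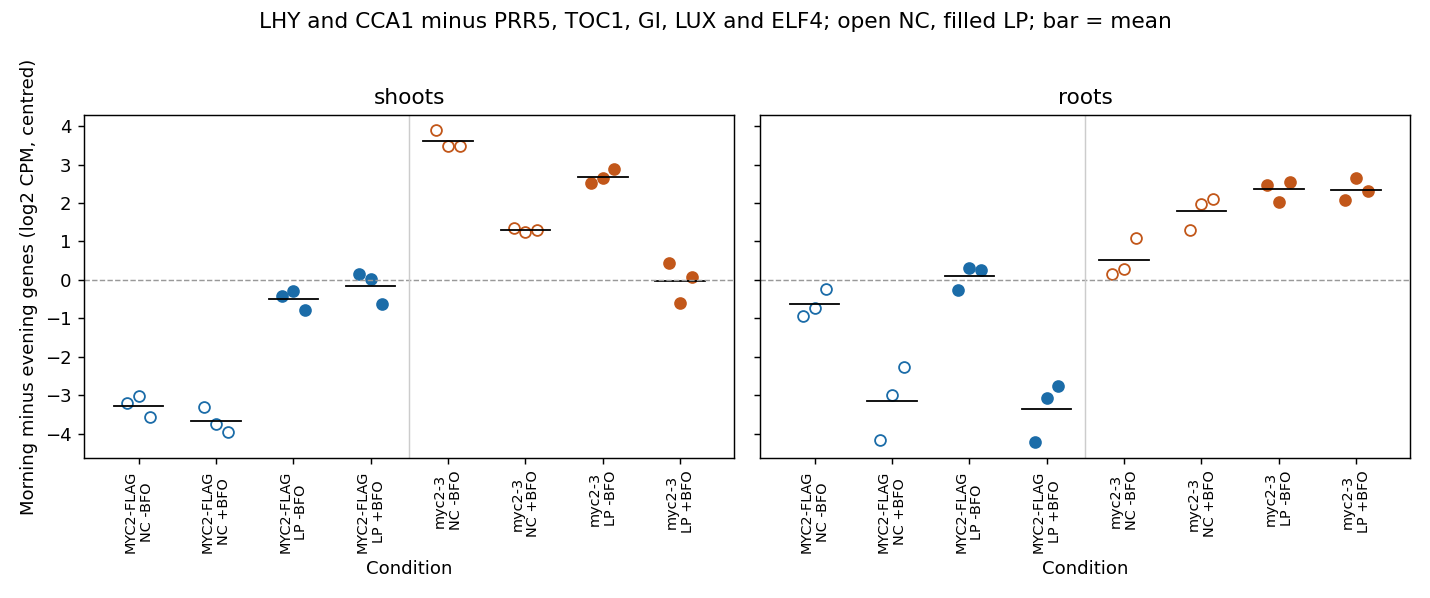
Morning minus evening balance (centred log2 CPM) of each library in shoots and roots, by genotype, light and BFO; a positive value means that the centred mean of LHY and CCA1 lay above that of PRR5, TOC1, GI, LUX and ELF4, and bars are means of 3 libraries. In shoots the means ran from -3.66 in MYC2–FLAG NC +BFO to 3.61 in *myc2-3* NC −BFO.

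The members were also correlated with LHY across the libraries of each tissue. These libraries span both genotypes, so the LHY difference on which the set was selected enters the correlations. Over the 24 shoot libraries, Pearson's r with LHY on log2 CPM was 0.861 for CCA1 and 0.744 for PRR9, and it was -0.931 for LUX, -0.931 for ELF3, -0.9 for TOC1, -0.832 for ELF4, -0.819 for PRR5, -0.588 for GI and -0.251 for PRR7. Over the 24 root libraries it was 0.963 for CCA1, 0.387 for PRR9 and from -0.866 for LUX to -0.579 for PRR7 among the others. These correlations mostly follow the differences between the 8 conditions of a tissue. With each condition's mean removed, r with LHY in shoots was 0.466 for CCA1, 0.426 for PRR7, 0.257 for GI, 0.188 for TOC1, 0.161 for PRR9 and 0.033 for ELF4, and it was -0.261 for PRR5, -0.289 for ELF3 and -0.408 for LUX. In roots it was 0.848 for CCA1, 0.631 for ELF3, 0.574 for PRR9, 0.358 for PRR7, 0.177 for GI, 0.021 for TOC1, -0.013 for PRR5, -0.221 for LUX and -0.26 for ELF4. Within conditions r thus turned from negative to positive for PRR7, TOC1 and GI in both tissues, ELF4 in shoots and ELF3 in roots. The values that stayed negative were smaller in size than over all libraries. The points share tissue, genotype and title prefix, and no p is given.

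The genes most like LHY in shoots, among 14734 genes with a mean of at least 5 CPM, were RVE8 (r = 0.936), a MYB-related relative of LHY, LNK2 (0.922), a partner of RVE8, HEMA1 (0.918), an enzyme of tetrapyrrole synthesis, CDF2 (0.915), a DOF transcription factor, and ATH13 (0.908). The least like it were AT1G17665 (-0.96), MBF1B (-0.957) and COL9 (-0.943). In roots, among 14914 genes, CCA1 (0.963) came first, followed by DJ1F (0.914), SAM1 (0.894), NAS1 (0.89) and AT3G12900 (0.887), and AT1G06840 (-0.895), AT5G01750 (-0.887) and CBSX3 (-0.868) came last. For TOC1 the most alike were AT5G51570 (0.97), RIBA2 (0.964), PRR3 (0.957), RD19 (0.956) and BBX13 (0.954) in shoots and COL9 (0.979), BBX13 (0.947), AT1G53440 (0.943), ALAAT2 (0.94) and OBE1 (0.938) in roots. The least like TOC1 were CDF2 (-0.922), AT2G41870 (-0.904) and RR3 (-0.902) in shoots and DTX35 (-0.922), AT5G51220 (-0.912) and LNK1 (-0.905) in roots. PRR3, a pseudo-response regulator, and BBX13 and COL9, B-box proteins, stood near TOC1, and COL9 was at the far end from LHY in shoots and nearest to TOC1 in roots.

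A further 36 clock-associated genes were listed, 16 with morning expression (RVE, LNK and CDF families) and 20 others, of which 19 were tested. Of the morning list in MYC2–FLAG shoots, 8 rose and 1 fell under LP in −BFO plants (median log2 fold change 1.1, against -0.045 over all genes), and 9 rose and none fell in +BFO plants (median 1.26, against 0). Of the other list, none rose and 6 fell in each (medians -0.25 and -0.59). In *myc2-3* shoots under LP, 6 of the morning list fell and none rose in −BFO plants, and 1 fell in +BFO plants, with 2 higher and 1 lower of the other list in each. With BFO in *myc2-3* shoots, 8 of the morning list fell under NC and 4 under LP and none rose, while 6 and 5 of the other list rose and none fell. With BFO in MYC2–FLAG shoots, 1 of the morning list fell under NC, and 5 rose under LP, with 1 higher and 1 lower of the other list. In roots under LP, the morning list had 3 genes higher in *myc2-3* −BFO plants and none called in the other 3 comparisons, and the other list had 1 lower in MYC2–FLAG −BFO, 1 higher in MYC2–FLAG +BFO and none in *myc2-3*. With BFO in roots, the morning list had 1 higher and 2 lower under NC and 2 higher and 0 lower under LP in MYC2–FLAG, and 1 higher and 0 lower and 0 higher and 6 lower in *myc2-3*. The other list had 4 higher and 1 lower and 7 higher and 0 lower in MYC2–FLAG, and 0 higher and 3 lower and 0 higher and 5 lower in *myc2-3*. Between tissues, the morning list had 5 higher and 2 lower in shoots of MYC2–FLAG and 7 higher and 2 lower in *myc2-3*, and the other list 5 higher and 1 lower and 1 higher and 3 lower. For comparison, 45.8% of all genes were called between tissues in MYC2–FLAG and 48% in *myc2-3*. The light comparisons called 7.19% to 18.9% of all genes in shoots and 1.18% to 5.03% in roots. The BFO comparisons called 6.18% to 14.3% in shoots and 9.20% to 16.6% in roots, with 15.9% in MYC2–FLAG roots under LP. Whether either list differed from these shares was not tested.

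The 4 listed genes called most often over the 16 light and BFO comparisons were CDF1 and LNK1, in 9 each, and AT4G33980 and FKF1, in 8 each. LNK1, a co-activator recruited by RVE8, was called in all 8 shoot comparisons with log2 fold changes from -1.65 to 3.44, and in 1 root comparison. CDF1, a DOF repressor of flowering that FKF1 and GI remove, rose under LP in MYC2–FLAG +BFO shoots by 3.96 (SE 0.25, edgeR adjusted p = 2.74e-16) and fell with BFO in *myc2-3* shoots under NC (-2.42, SE 0.21, edgeR adjusted p = 5.73e-12). FKF1, a blue-light F-box protein of the ZTL family, stood at a mean of 1.1 CPM in *myc2-3* NC −BFO shoots and 7.20 CPM with BFO, against 81.1 and 79.3 CPM in MYC2–FLAG. Its response to BFO in roots under NC was 1.61 (SE 0.17, edgeR adjusted p = 1.07e-09) in MYC2–FLAG and -2.76 (SE 0.22, edgeR adjusted p = 4.23e-13) in *myc2-3*. AT4G33980 went with FKF1 in roots, at 2.91 (SE 0.20, edgeR adjusted p = 2.93e-15) and -3.05 (SE 0.24, edgeR adjusted p = 3.38e-13), and in *myc2-3* NC −BFO shoots it was at a mean of 0.164 CPM against 111 CPM in MYC2–FLAG. The opposite signs of FKF1 and AT4G33980 in roots of the 2 genotypes parallel those of the evening members, in the same libraries.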

How the data were processed

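RNA sequencing libraries covered both tissues of the *myc2-3* and MYC2–FLAG lines. The authors mapped single reads to TAIR10 with TopHat2, counted them per gene by strand with HTSeq, and deposited raw counts with no normalization. The 5 summary lines of each table were left out. Tool and build names follow the submitters' processing notes, and gene symbols a reference annotation of TAIR10.1, used for names only.

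The analysis used edgeR 4.0.16 in R 4.3.3: more than 100 counts in total, TMM scaling, quasi-likelihood fits with 1 mean per condition over 48 libraries, and Benjamini-Hochberg adjustment over all 21098 genes. CPM are TMM-scaled. SE is the absolute log2 fold change over the square root of the F statistic. The fit was tested on simulated data. The members, lists, contrasts and alternatives were chosen with earlier results of these data known. All members, MYC2, the 4 clock-associated genes called most often, and the 5 most and 3 least alike to LHY and TOC1 were named by rule. Log2 CPM for the balance and likeness used a prior count of 2. Labels give replicates without saying that they are separate cultures; the methods state biological replicates of an experiment done once. Replicates differed by more than sampling noise (chi-square per degree of freedom at least 2.73), and each was counted as a library of its own. That spread cannot show whether the libraries came from separate plants or pots. Alternatives were limma 3.58.1 (voom), DESeq2 1.42.0, its size factors, no filter, filterByExpr, fits by tissue, no fold minimum, a replicate block, thinned counts, the legacy edgeR fit, and each library left out. Promoter and protein sequences and coordinates were not used here.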

Additional observations from a re-analysis of the deposited data

Results flagged for a closer look

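In 25 of 80 pairs of a light or BFO response, every library of 1 genotype moved one way and every library of the other genotype the opposite way. This is 31.2% of the pairs, against 14.3% over all genes tested, and from 29.1% to 29.8% of all genes in the BFO response of roots. The difference itself was not tested, because it uses the contrast that chose the genes. The values below are the log2 fold change in MYC2–FLAG minus that in *myc2-3*. For the light response of −BFO shoots they were CCA1 (2.85), PRR9 (4.63), TOC1 (-1.97) and LUX (-3.0). For the light response of +BFO shoots they were LHY (3.69), CCA1 (4.83), PRR9 (4.49), GI (1.15) and ELF3 (-1.20). For the BFO response of shoots under NC they were PRR7 (-0.55) and PRR5 (-1.92). For the BFO response of shoots under LP they were CCA1 (2.75), PRR9 (2.38) and LUX (-1.76). For the BFO response of roots under NC they were PRR7 (1.21), PRR5 (2.33), TOC1 (1.65), LUX (1.76), ELF3 (1.62) and ELF4 (2.56). For the BFO response of roots under LP they were PRR7 (1.45), PRR5 (2.47), TOC1 (0.92), GI (0.92) and ELF3 (1.41).

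In 18 of 80 pairs, shoots and roots of the same genotype moved in opposite directions in the same sense (22.5%, against 8.54% over all genes), and this was not tested either. The values are the log2 fold change in shoots minus that in roots. In the light response of MYC2–FLAG −BFO plants these were PRR9 (3.08). In the BFO response of MYC2–FLAG under NC these were PRR7 (-0.83) and PRR5 (-1.13). In the BFO response of MYC2–FLAG under LP these were CCA1 (3.13) and LUX (-1.31). In the light response of *myc2-3* −BFO plants these were CCA1 (-2.73), TOC1 (1.04) and LUX (1.89). In the light response of *myc2-3* +BFO plants these were LHY (-1.92) and CCA1 (-1.92). In the BFO response of *myc2-3* under NC these were PRR7 (0.94), PRR5 (3.13), TOC1 (2.15), LUX (3.09) and ELF3 (1.76). In the BFO response of *myc2-3* under LP these were PRR5 (3.77), TOC1 (0.92) and ELF3 (1.49). The root values rest on libraries whose mean profiles went against their BFO labels between the genotypes, and each shoot value of *myc2-3* uses NC −BFO or LP +BFO, whose profiles also went against the same label in MYC2–FLAG (r = -0.353 and -0.708). Groups of 3 libraries are too small for a test of single outlying values.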

How the results depend on the processing

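With the fold minimum kept, calls of the clock genes changed little with the choice of test, scaling or filter. Dropping the fold minimum added many calls. No fold change of a called gene changed sign in any alternative. DESeq2, its size factors in edgeR, no filter, filterByExpr, fits by tissue and the legacy fit changed none of the calls they covered, limma-voom added 1 (ELF4 under LP in MYC2–FLAG +BFO shoots, -1.07), and thinning to the smallest total ended 1 and added 2. With the fold minimum dropped, more members were called: 30 of 40 for light in shoots against 15, 10 of 40 for light in roots against 3, 25 of 40 for BFO in shoots against 13, 31 of 40 for BFO in roots against 9 and 16 of 20 for tissue against 7. By that rule 25.3% to 45.7%, 3.44% to 17.7%, 24.1% to 35.6%, 27.0% to 45.1% and 84.9% to 86.2% of all genes were called, in the same order. With each library left out in turn, the calls ran from 14 to 16 for light in shoots, 3 to 4 for light in roots, 13 to 14 for BFO in shoots, 7 to 10 for BFO in roots and 7 to 8 for tissue, and the untested count of genotype differences from 48 to 51 of 80, against 50. Within a tissue, deviations of same-numbered replicates correlated at -0.308 to 0.454 in shoots (median -0.021) and at -0.163 to 0.271 in roots (median -0.005). The correlation was over 0.1 in 7 of 84 pairs in shoots and 5 of 84 in roots. For replicates of different number the median was 0.01 in shoots and 0.006 in roots. Shoot and root libraries were not set against each other, and whether the numbers pair the samples was not tested. With the replicate block the counts were 15, 3, 13 and 9 as without it, and 9 for tissue, where ELF4 in MYC2–FLAG (-1.34) and CCA1 in *myc2-3* (1.34) were added. The span of the morning against evening balance in shoots was 7.27 log2 units, 7.0 for LHY against TOC1 alone, 7.28 with DESeq2's size factors and 7.05 without ELF4. Each of these versions keeps LHY, on which the set was selected. Depth limits LHY in MYC2–FLAG NC shoots (3 to 10 counts per library) and ELF4 in *myc2-3* shoots (0 to 4 counts), where fold changes are least certain.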
